A study of Mus musculus with 36 samples.

Results

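The 9 genes described here mark monocytes and the phagocytes that arise from them, and they are followed through 36 bulk RNA libraries of a tumor and 5 organs. They were taken by name: Ly6c2, Ccr2, Cx3cr1 and Chil3, called the monocyte genes below, and Lyz2, Mpeg1, Cd68, Aif1 and Ms4a7, called the mature phagocyte genes. These class names are labels for the lists and do not state which cells gave the RNA. Genes and classes were chosen with earlier results of these data known. All 9 are present among the 18760 named genes used. The mice were C57BL/6 wild type and carried MC38 tumors, a transplanted mouse colon carcinoma line, so both treatments were compared in animals with a tumor. ICB libraries came from mice given anti-PD1 and anti-CTLA4 antibodies together at high dosage, and IgG libraries from mice given control IgG. There were 3 ICB and 3 IgG libraries from each of tumor, lung, liver, kidney, heart and skeletal muscle. Neither the time of collection nor the age of the mice was given in the sources used here, and no label states whether each library had its own mouse, so p-values measure the spread between libraries, which may be partly technical.

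Monocytes leave the bone marrow through the chemokine receptor CCR2, circulate as Ly6C-high classical or CX3CR1-high nonclassical cells, and can become macrophages in tissues and tumors. Along that path they keep lysosomal and pore-forming proteins of phagocytosis and lose part of their blood-stage genes. PD-1 and CTLA-4 are inhibitory receptors of T cells, and T cells released by their blockade make interferon gamma, a cytokine that activates macrophages. In bulk RNA, fewer cells of a type and less RNA of a gene per cell cannot be told apart, and this holds for every level below.

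Each library held between 19005189 and 25512980 reads assigned to genes. Levels are FPKM, fragments scaled to gene length and library depth, as scaled by the authors, so they can be set side by side between genes of a library. The sum of FPKM ran from 203235 to 925573 between libraries, so comparisons of level between tissues depend on the scaling. Markers of the labelled organs were high in their own organ, such as summed hepatocyte markers of 67870 to 71200 FPKM in ICB livers and 64300 to 83280 FPKM in IgG livers. The tumor was the exception: 0 of 7 epithelial carcinoma markers (Krt8, Krt18, Krt19, Krt20, Cdh1, Epcam and Cldn7) passed the filter there, with sums of 0.622 to 1.59 FPKM under ICB and 1.55 to 2.54 FPKM under IgG. Mitochondrial genes took 1.58% to 25.6% of the reads of a library, and within a tissue the scaling factors implied by the FPKM values differed by a ratio of at most 1.22.

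Per GENCODE M21 on mm10, all 9 are protein-coding. Ly6c2 (chr15:75108158-75111970) codes for the surface protein Ly6C, Ccr2 (chr9:124101950-124113557) and Cx3cr1 (chr9:119901616-120069879) for chemokine receptors, and Chil3 (chr3:106147554-106167564) for the secreted chitinase-like protein Ym1. Lyz2 (chr10:117277331-117282321) codes for lysozyme, Mpeg1 (chr19:12460779-12465283) for the pore-forming protein perforin-2, and Cd68 (chr11:69664213-69666153) for a lysosomal membrane glycoprotein. Aif1 (chr17:35170991-35176068) codes for the actin-binding protein IBA1, and Ms4a7 (chr19:11321039-11336146) for a membrane protein of macrophages. Ccr2 and Mpeg1 lie on the plus strand and the other 7 on the minus strand.

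Sequences of the starts are shown for 4 members on which the treatment results below turn: Ly6c2, which had the largest treatment difference of any member in the tumor, and Lyz2, Mpeg1 and Cd68, which passed the test over the organs. They are the 250 bases before the RefSeq transcript start (GRCm38.p6, 5′ to 3′ on the gene's own strand), at chr15:75111972-75112221, chr10:117282273-117282522, chr19:12460520-12460769 and chr11:69666171-69666420. Capitals mark GAGGAA, a core that PU.1 and other ETS factors bind, searched on both strands.
Ly6c2: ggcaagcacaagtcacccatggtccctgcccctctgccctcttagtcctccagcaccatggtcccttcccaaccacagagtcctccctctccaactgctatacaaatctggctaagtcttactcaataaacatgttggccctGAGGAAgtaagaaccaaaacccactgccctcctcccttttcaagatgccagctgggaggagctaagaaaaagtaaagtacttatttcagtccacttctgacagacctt
Lyz2: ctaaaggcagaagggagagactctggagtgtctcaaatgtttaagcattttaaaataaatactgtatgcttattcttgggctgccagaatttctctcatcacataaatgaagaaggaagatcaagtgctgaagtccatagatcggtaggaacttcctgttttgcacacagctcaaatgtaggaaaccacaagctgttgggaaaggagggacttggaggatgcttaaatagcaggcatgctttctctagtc
Mpeg1: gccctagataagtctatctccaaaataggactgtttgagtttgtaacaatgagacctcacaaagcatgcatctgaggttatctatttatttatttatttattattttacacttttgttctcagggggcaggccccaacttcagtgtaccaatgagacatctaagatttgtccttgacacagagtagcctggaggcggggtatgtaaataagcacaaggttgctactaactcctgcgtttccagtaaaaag
Cd68: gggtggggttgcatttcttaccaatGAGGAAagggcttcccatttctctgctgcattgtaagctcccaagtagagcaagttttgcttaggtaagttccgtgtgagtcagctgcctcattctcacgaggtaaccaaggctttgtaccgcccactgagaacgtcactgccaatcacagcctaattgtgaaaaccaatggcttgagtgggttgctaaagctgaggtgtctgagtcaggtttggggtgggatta
Ly6c2 held the core with its first base at -108 from the start and Cd68 at -225, while Lyz2 and Mpeg1 held none within this window. A second RefSeq start of Ly6c2, not printed, held 2 matches, at -142 and -8. Aif1 was the third member with a match, on the opposite strand at -7. Of the 9 members 3 held GAGGAA or its reverse TTCCTC within 250 bases, against 23.1% of 27025 promoters of the same length, a share close to that background. None of the 9 held TATAAA, found in 13% of promoters, or the C/EBP palindrome TTGCGCAA, found in 0.17%.

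Some counts cannot be cleanly assigned. The longest coding transcripts of Ly6c2 and Ly6c1 were 97.57% identical over 822 bases, and 32.6% of the 50-base windows of Ly6c2 occurred unchanged in Ly6c1. Lyz2 and Lyz1 were 95.96% identical with 15.39% of windows shared, and Chil3 and Chil4 94.41% with 18.46% shared. How reads common to such copies were counted is not given in the sources used here. Ly6c1, which vessel-lining cells also express, was far above Ly6c2 in kidney, heart and muscle, where Ly6c2 was 0.23% to 1.6% of the FPKM of the pair. Lyz2 was at least 90.2% of the FPKM of its pair with Lyz1 in each library. The annotated span of Cx3cr1 overlaps other genes on both strands, among them Wdr48 and Ttc21a on the opposite one, and whether counting used strand is not stated.

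Under IgG, the 9 genes divided into those highest in lung and those highest in tumor. Lung held the highest mean log2 level of 5 members (Ly6c2, Ccr2, Chil3, Lyz2 and Mpeg1), and tumor that of 4 (Cx3cr1, Cd68, Aif1 and Ms4a7). The lead over the next tissue did not pass for Mpeg1 (lung over liver, 0.01 log2 units), Cx3cr1 (tumor over lung, 0.04) and Aif1 (tumor over liver, 0.36). Adjusted p was 0.48 or more for these leads (limma). The same tissue was highest for 9 of 9 members when libraries were rescaled to a common sum (TPM scale). Lower places depended on the scale: 12 of the pair tests given next changed sign on the TPM scale, of which 0 had passed before and 4 passed there. Over 15 pairs of tissues, 79 of 135 member tests passed (58.5%; limma, adjusted p at most 0.05). Over the same pairs 62.7% of all gene tests passed, from 43.1% to 69.9% in a pair, so the members' share was near the background. Of the 45 steps between neighbours in the members' orders of level, 13 passed.

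**Figure D1:**
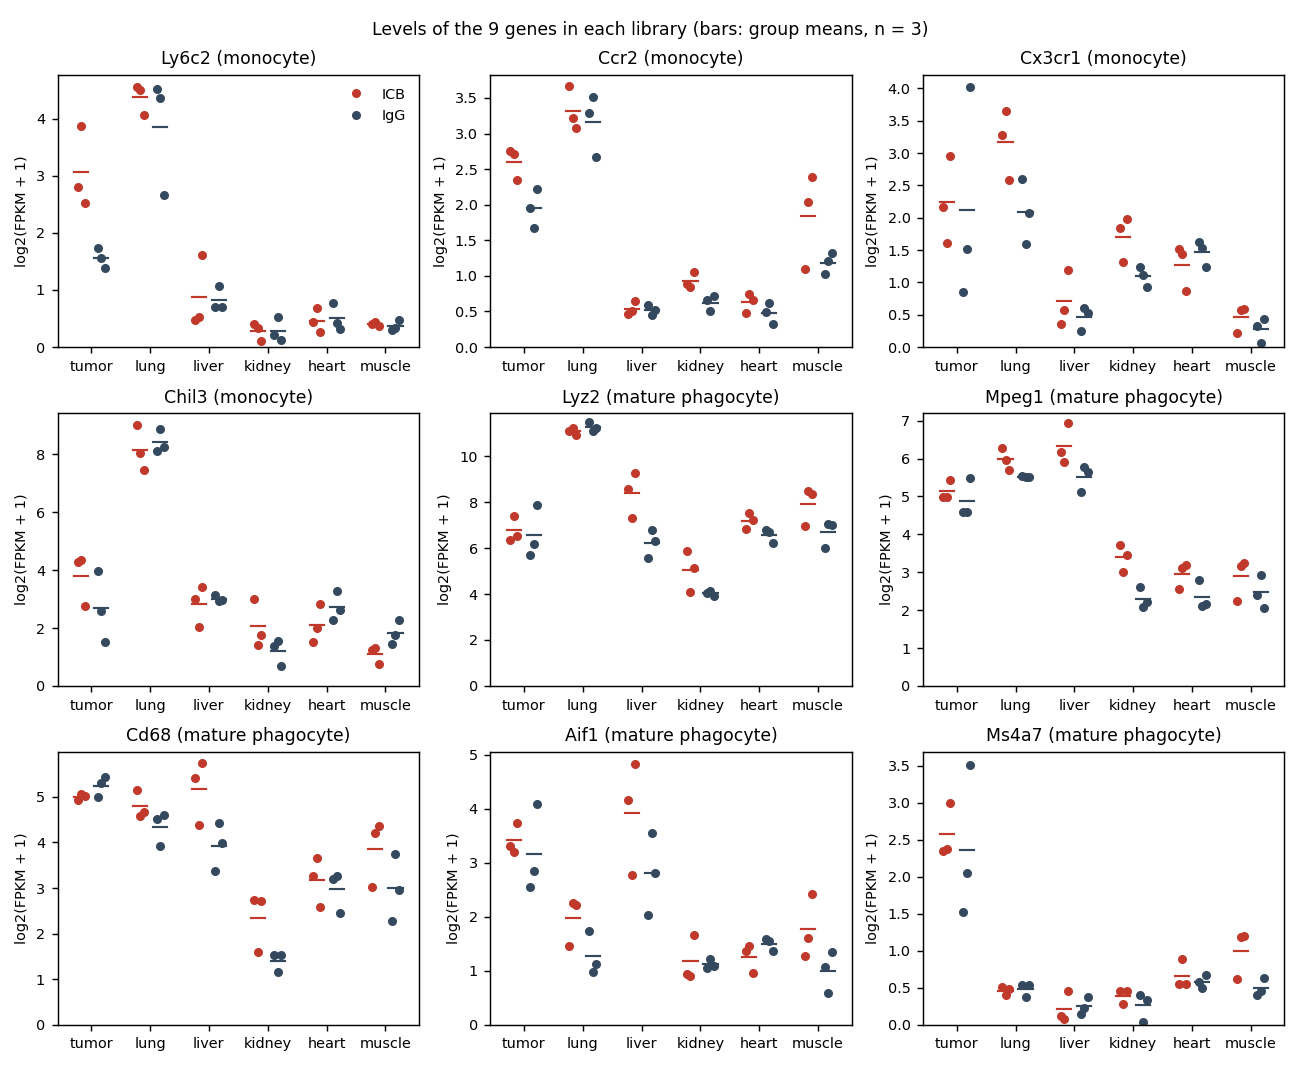
Level of each of the 9 genes in every library as log2(FPKM + 1), by tissue, with ICB in red to the left of IgG in blue. Short bars are group means of 3 libraries. Chil3 and Lyz2 stand far higher in lung than elsewhere, Ms4a7 stands above 1 FPKM in all 6 tumor libraries, and ICB points lie above all IgG points for Ly6c2 and Ccr2 in tumor.

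Chil3 and Lyz2 had the steepest tissue profiles. Chil3 had 512, 261 and 174 FPKM in ICB lungs, and 279, 466 and 302 FPKM in IgG lungs. Outside the lung its group means were at most 14.6 FPKM, and under IgG the lung lay 5.40 ± 0.51 log2 units above the next tissue, liver (SE, limma, adjusted p = 1.8e-10). The other 4 steps in its order (liver, heart, tumor, muscle, kidney) did not pass, and on the TPM scale tumor stood above liver (1.26 ± 0.53, limma, adjusted p = 0.031). Lyz2 reached 1923 to 2416 FPKM in ICB lungs and 2156 to 2861 FPKM in IgG lungs, against group means of 15.4 to 383 FPKM elsewhere. Alveolar macrophages express Chil3, and both they and type II epithelial cells express Lyz2. The 12 alveolar macrophage markers summed to 143 to 178 FPKM in ICB lungs and 141 to 202 FPKM in IgG lungs, none of them at 0. The same list summed to 1830 to 2153 FPKM in ICB livers and 1189 to 3345 FPKM in IgG livers, so its sum is not particular to lung.

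The receptor genes had their own tissue orders. Ccr2 averaged 8.19 ± 2.59 FPKM in IgG lungs, 2.91 ± 0.75 in IgG tumors and 1.28 ± 0.24 in IgG muscles (SD, n = 3 each). Each of these steps passed, as did the step from muscle down to kidney (limma, adjusted p = 0.031), and the order of kidney, liver and heart did not. Ly6c2 stood 2.29 ± 0.34 log2 units higher in lung than in tumor under IgG (limma, adjusted p = 8.2e-07), and no later step in its order passed. Cx3cr1 averaged 5.95 ± 8.02 FPKM in IgG tumors and 3.42 ± 1.53 in IgG lungs, and none of the 5 steps in its order passed. Its tumor mean rests on 1 library at 15.2 FPKM, beside 0.802 and 1.85 in the other 2.

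Among the mature phagocyte genes, Ms4a7 was much higher in tumor than in any organ. It had 4.08, 4.18 and 6.97 FPKM in ICB tumors and 1.89, 3.12 and 10.4 FPKM in IgG tumors, and at most 1.29 FPKM in any organ library. The step from tumor to heart, the next tissue, was 1.78 ± 0.27 log2 units (limma, adjusted p = 1.2e-06). Cd68 was the member with most pairs passed, 13 of 15, from 37.3 ± 5.7 FPKM in IgG tumors to 1.67 ± 0.38 in IgG kidneys (SD, n = 3). Mpeg1 stood at 44.9 ± 0.6 FPKM in IgG lungs and 45.5 ± 10.2 in IgG livers, with no difference beyond the spread (0.01 ± 0.30 log2 units), and at 30.0 ± 12.2 in IgG tumors. That order of liver and tumor held on the FPKM scale alone: IgG tumor minus liver was -0.63 for Mpeg1 (limma, adjusted p = 0.068), against 1.18 ± 0.32 on the TPM scale (adjusted p = 0.0014), where the median of all genes moved to 1.22, against 0.03 on the FPKM scale. Its step from tumor to muscle was 2.42 ± 0.30 log2 units (limma, adjusted p = 3.7e-08). Aif1 stood at 9.02 ± 6.12 FPKM in IgG tumors and 6.63 ± 3.86 in IgG livers, and the step from liver to heart passed (1.30 ± 0.42, limma, adjusted p = 0.0079).

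The question the design poses is what ICB did to these genes in each tissue. In single tissues no member passed. Of 40 member tests with limma over all expressed genes 0 passed, and 17 had an unadjusted p under 0.05. With limma-voom on reads recovered from the FPKM values, 0 of 40 passed and 16 had an unadjusted p under 0.05. The background was as bare: 0% of genes passed in tumor, lung, liver, heart and muscle, and 0.0168% in kidney. Which members lay apart without overlap therefore serves only as a description. Of the 40 member tests, 9 had all ICB libraries above all IgG libraries, where 4.6% of the gene tests of the 6 tissues did, and 1 had them all below, where 5.15% did. Ccr2 in kidney, which was not tested, also had ICB above IgG.

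Set beside all genes, the unadjusted counts ran above the background in each tissue. In tumor 2 of 9 members had an unadjusted p under 0.05 (limma), against 6.87% of all genes tested there, and in lung 3 of 8, against 4.35%. In liver it was 3 of 5, against 3.37%, and in kidney 4 of 6, against 3.71%. In heart it was 2 of 6, against 4.54%, and in muscle 3 of 6, against 5.33%. The members are not independent of each other, and they were chosen with earlier results of these data known. These counts are therefore descriptions. The difference was above 0 for 8 of 9 members in tumor (48.2% of all genes), 6 of 8 in lung (47.6%), 4 of 5 in liver (45.6%), 6 of 6 in kidney (44.9%), 3 of 6 in heart (51.3%) and 5 of 6 in muscle (50.6%). ICB libraries lay below IgG libraries without overlap for none of the members in tumor (7.49% of all genes), lung (4.14%), liver (3.58%), kidney (5.22%) or heart (4.97%).

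In the tumor, Ly6c2, Chil3 and Ccr2 had the largest treatment differences of the 9 members, none of which passed, and the fourth monocyte gene, Cx3cr1, had the smallest in size (0.12 ± 0.80). Ly6c2 had 5.97, 13.7 and 4.74 FPKM in ICB tumors, against 2.35, 1.97 and 1.63 FPKM in IgG tumors. Every ICB tumor lay above every IgG tumor, and the difference was 1.498 ± 0.335 log2 units (SE, limma, adjusted p = 0.69, unadjusted 0.0030). Ccr2 had 5.75, 5.57 and 4.09 FPKM in ICB tumors and 2.88, 2.19 and 3.68 FPKM in IgG tumors, again without overlap, a difference of 0.65 ± 0.18 (limma, adjusted p = 0.69). These were 2 of the 9 members tested, where 5.65% of all genes in the tumor had ICB above IgG without overlap. Read from 1 fit of all 36 libraries, which shares 1 estimate of the spread, the same Ly6c2 difference passed with an adjusted p of 0.027 (limma) and Ccr2 did not.

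Ly6c1 also lay apart, at 11.4, 14.1 and 10.8 FPKM in ICB tumors and 10.03, 8.96 and 4.78 FPKM in IgG tumors. Ly6c2 made up 30.4% to 49.4% of the FPKM of the pair in ICB tumors and 18% to 25.4% in IgG tumors, so the ratio of the copies differed as well. Chil3 had 18.4, 19.5 and 5.85 FPKM in ICB tumors against 14.8, 4.999 and 1.87 in IgG tumors, and the groups overlapped. Cx3cr1 had 3.49, 2.06 and 6.75 FPKM in ICB tumors against 0.802, 1.85 and 15.2 in IgG tumors. That last IgG tumor, replicate 3, also held the highest Lyz2 (234 FPKM), Mpeg1 (44.2), Aif1 (16.04), Ms4a7 (10.4) and Cd68 (42.3) of all 6 tumors, and the lowest Chil3.

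The mature phagocyte genes in the tumor gave no such separation. Cd68 was close to even, at 29.7, 32.4 and 31.4 FPKM in ICB tumors and 31.2, 38.5 and 42.3 in IgG tumors (-0.24 ± 0.13 log2 units, 95% interval -0.55 to 0.07). Lyz2, Mpeg1, Aif1 and Ms4a7 had differences of 0.19 to 0.26, each with an interval crossing 0. Without IgG replicate 3 the difference was 0.84 for Lyz2, 0.55 for Mpeg1, 0.72 for Aif1 and 0.78 for Ms4a7. Without IgG replicate 1 it was -0.26 for Lyz2, 0.10 for Mpeg1, -0.05 for Aif1 and -0.20 for Ms4a7, so which IgG tumor was left out changed the size for all 4 and the sign for Lyz2, Aif1 and Ms4a7. NK cell markers moved in the tumor too: 7 of them summed to 11.5 to 25.5 FPKM in ICB tumors and 26.9 to 57.9 FPKM in IgG tumors, without overlap and with none at 0, and their part was not tested.

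In the liver the larger treatment differences were those of mature phagocyte genes, and most monocyte genes were too low to test. Lyz2 had 375, 159 and 614 FPKM in ICB livers and 46.7, 109 and 78.7 FPKM in IgG livers. No ICB liver overlapped an IgG liver, and the difference, 2.16 ± 0.51 log2 units, was the largest of the 40 member tests in single tissues (limma, adjusted p = 1.00, unadjusted 0.0029). Among the alternatives run it passed from the fit of all 36 libraries (limma, adjusted p = 0.037) and in no other. Mpeg1 had 70.9, 58.7 and 122 FPKM in ICB livers against 34.0, 53.5 and 48.9 in IgG livers, also without overlap. Lyz2 and Mpeg1 were 2 of the 5 members tested in liver, where 3.26% of genes had ICB above IgG without overlap.

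Cd68 in liver had 41.3, 19.8 and 52.8 FPKM under ICB and 9.44, 20.4 and 14.9 FPKM under IgG. Aif1 had 16.8, 5.85 and 27.5 FPKM under ICB and 3.10, 10.8 and 6.02 FPKM under IgG. For both genes ICB replicate 2 sat among the IgG livers, and the other 2 ICB livers lay above all 3 of them. Chil3 had 7.06, 3.10 and 9.75 FPKM in ICB livers and 7.86, 6.61 and 6.82 FPKM in IgG livers, with no difference beyond the spread. Ly6c2, Ccr2, Cx3cr1 and Ms4a7 did not reach 1 FPKM in 3 of the 6 livers and were not tested there.

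Kidney had the lowest mean log2 level of 5 of the 9 members under IgG, and 4 members whose ICB and IgG kidneys did not overlap. The step down to kidney passed for Lyz2 and Cd68 and not for Ly6c2, Chil3 and Mpeg1. On the TPM scale Ly6c2 was lowest in muscle and Mpeg1 in heart. Mpeg1, which codes for perforin-2, had 12.1, 7.08 and 9.89 FPKM in ICB kidneys against 5.16, 3.25 and 3.62 FPKM in IgG kidneys. Its difference was 1.08 ± 0.20 log2 units (limma, adjusted p = 0.99, unadjusted 0.00061). Cd68 had 5.67, 2.02 and 5.56 FPKM in ICB kidneys against 1.89, 1.23 and 1.88 FPKM in IgG kidneys. Both genes lay above all IgG kidneys in every ICB kidney.

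The fractalkine receptor gene Cx3cr1 had 2.56, 1.48 and 2.93 FPKM in ICB kidneys against 1.36, 1.17 and 0.910 in IgG kidneys. These 3 genes were among the 6 members tested in kidney, where 3.45% of genes had ICB above IgG without overlap. Ccr2, too low to be tested, lay apart as well, at 0.801 to 1.07 FPKM under ICB and 0.418 to 0.640 FPKM under IgG. Lyz2 had 57.8, 16.1 and 33.9 FPKM in ICB kidneys and 15.7, 16.6 and 14.0 FPKM in IgG kidneys, so ICB replicate 2 fell within the IgG range. Without that library Cd68 passed in kidney (1.32 log2 units, limma, adjusted p = 0.043).

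Markers of other tissues also stood higher in ICB kidneys. The 8 skeletal muscle markers summed to 9.03 to 13.7 FPKM in ICB kidneys and 4.16 to 7.10 FPKM in IgG kidneys, and none was at 0. The 10 adipocyte markers summed to 147 to 353 FPKM under ICB and 108 to 255 FPKM under IgG, with 9 of 9 tested above 0 in difference. Their part in the kidney differences was not tested.

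In lung, no monocyte gene separated ICB from IgG libraries. Mpeg1 had 76.3, 61.5 and 51.0 FPKM in ICB lungs against 45.6, 44.6 and 44.5 in IgG lungs, the 1 of 8 tested members without overlap, where 4.50% of genes were so placed. Its difference was 0.46 ± 0.18 log2 units (limma, adjusted p = 0.99). Cx3cr1 had 8.75, 11.5 and 4.99 FPKM in ICB lungs against 5.05, 2.02 and 3.19 in IgG lungs, a difference of 1.08 ± 0.33, and the lowest ICB lung lay just below the highest IgG lung. Ly6c2 had 22.5, 21.6 and 15.8 FPKM in ICB lungs against 22.1, 19.6 and 5.35 in IgG lungs, so its difference of 0.52 rested on IgG replicate 3. Without that library it was -0.07. Ly6c2 made up 8.23% to 10.3% of the FPKM of its pair with Ly6c1 in ICB lungs and 3.92% to 5.89% in IgG lungs.

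Lyz2 in lung had a difference of -0.19 ± 0.30 log2 units, and 0.03 on the TPM scale, a scaling that moved the median of all genes in lung from -0.01 to 0.18. The 7 lung epithelium markers summed to 20120 to 31200 FPKM in ICB lungs and 33970 to 54990 FPKM in IgG lungs without overlap, none of them at 0. Whether epithelial RNA has a part in the lung differences of Lyz2 was not tested.

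In heart and muscle, Lyz2 again had the largest positive difference of the members tested. Lyz2 in heart had 112, 182 and 150 FPKM under ICB against 110, 103 and 73.2 FPKM under IgG, the 1 member of 6 tested without overlap, where 4.79% of genes were so placed. The difference was 0.62 ± 0.21 (limma, adjusted p = 1.00). Mpeg1 had 4.89, 7.69 and 8.18 FPKM in ICB hearts and 5.96, 3.28 and 3.44 FPKM in IgG hearts. Chil3 had 1.88, 3.02 and 6.13 FPKM in ICB hearts and 3.88, 8.74 and 5.21 in IgG hearts, and the groups of both genes overlapped.

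In muscle, Lyz2 had 123, 356 and 322 FPKM under ICB against 63.7, 133 and 128 FPKM under IgG. Ccr2 had 1.14, 3.09 and 4.24 FPKM under ICB against 1.03, 1.30 and 1.503 FPKM under IgG. For both genes ICB replicates 2 and 3 were high and ICB replicate 1 sat among the IgG muscles. Chil3 ran the other way, at 1.39, 1.495 and 0.680 FPKM in ICB muscles against 1.72, 2.40 and 3.86 in IgG muscles. It was the only member in any tissue with ICB below IgG without overlap, where 5.62% of the genes of muscle were so placed (-0.72 ± 0.26 log2 units, limma, adjusted p = 0.88). The 10 adipocyte markers in muscle summed to 853 to 1383 FPKM under ICB and 1330 to 2598 FPKM under IgG, none at 0, and their part was not tested.

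Averaged over the 5 organs, 3 mature phagocyte genes passed as higher under ICB and none of the 4 members called monocyte genes passed. In single organs Ly6c2 was tested in lung alone and Ccr2 in lung and muscle. Both were low in the remaining organs, and the 1 added to FPKM before the log understates differences at such levels. With 0.1 added instead, the organ average was 0.44 for Ccr2 and 0.12 for Ly6c2, against 0.26 and 0.11, and neither passed (limma). Of the other monocyte genes read from a list below, 4 passed as higher. Mpeg1 was 0.68 ± 0.13 log2 units higher (SE, limma, adjusted p = 0.019), Lyz2 0.96 ± 0.22 (adjusted p = 0.044) and Cd68 0.74 ± 0.17 (adjusted p = 0.046). These were 3 of 8 members tested, where 0.414% of 15449 genes passed as higher, 0.0518% as lower and 0.466% in either direction. Mpeg1 was higher on average under ICB in 5 of 5 organs, Cd68 in 5 of 5, and Lyz2 in 4 of 5, with lung as the exception. Of the 8, 5 had an unadjusted p under 0.05, against 9.4% of all genes. Aif1 had 0.48 ± 0.19 (adjusted p = 0.33), Cx3cr1 0.39 ± 0.21 (0.60), Ccr2 0.26 ± 0.10 (0.32), Ly6c2 0.11 ± 0.15 (0.91) and Chil3 -0.18 ± 0.23 (0.90), all from the same limma fit. Ms4a7 was too low in every organ to be tested.

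Mpeg1 was the call least changed by other settings. Mpeg1 passed in each of 36 fits that left out 1 library (limma, adjusted p 0.0034 to 0.041), Lyz2 in 14 and Cd68 in 9. Adjusted p reached 0.093 for Lyz2 and 0.098 for Cd68 without liver ICB replicate 3. Mpeg1 alone passed when genes had to be expressed in each organ, with no filter on low values, and with limma-voom, and no member passed with the number in the sample titles as a replicate block. The libraries that sat among IgG libraries above, liver ICB replicate 2, kidney ICB replicate 2 and muscle ICB replicate 1, share 1 number in their titles. Libraries with that number had the lowest Lyz2 of the 3 ICB libraries in each of the 5 tissues where it occurs, at 81.2 FPKM in tumor, 159 in liver, 16.1 in kidney, 112 in heart and 123 in muscle. Each number in the titles occurs under 1 treatment alone and in no tissue more than 1 time. The labels do not say what the number marks, and the fit without the block treats such libraries as independent. If libraries with 1 number share a mouse, the p-values of that fit may be too small.

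**Figure D2:**
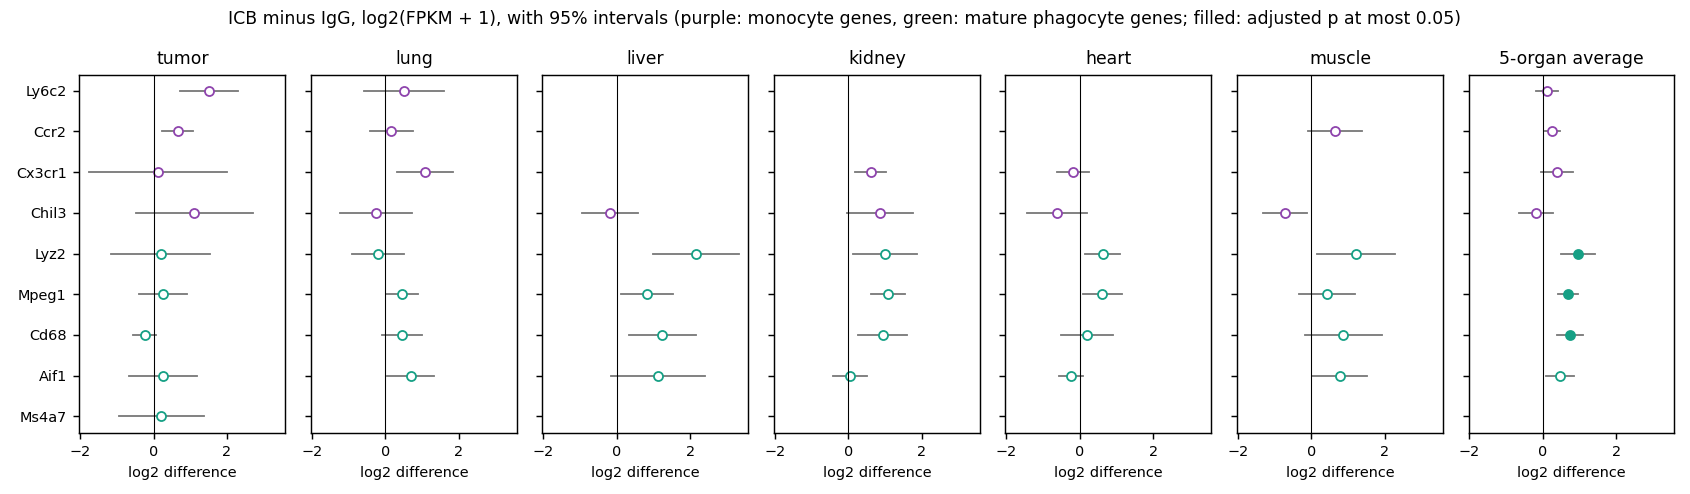
Difference between ICB and IgG in log2(FPKM + 1) for each tested member (point) with its 95% interval (line), by tissue and averaged over the 5 organs. Purple points are monocyte genes, green ones mature phagocyte genes, and filled points have an adjusted p of at most 0.05. The filled points are Lyz2, Mpeg1 and Cd68 in the organ average, and Ly6c2 stands highest in the tumor.

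Red cell transcripts moved with these organ differences. Of 8 erythroid markers tested over the organs, 8 had lower levels under ICB and Hba-a2, an alpha globin gene, fell by 1.69 ± 0.36 log2 units (SE, limma, adjusted p = 0.023). That call was lost without muscle ICB replicate 3 (adjusted p = 0.051), with the replicate block (0.077) and with limma-voom (0.085). The 9 erythroid markers summed to 236 to 374 FPKM in ICB kidneys and 526 to 721 FPKM in IgG kidneys, without overlap. In heart the sums were 421 to 557 FPKM under ICB and 758 to 3915 FPKM under IgG, and in muscle 302 to 895 FPKM under ICB and 1004 to 1543 FPKM under IgG. In lung, 8 of 8 erythroid markers tested were lower in ICB lungs with a median difference of -2.21, and the sums, 354 to 2131 FPKM under ICB and 1593 to 15700 FPKM under IgG, overlapped. In liver the sums overlapped too. The part of blood content in the organ averages was not tested. Lymphoid and dendritic cell markers lay on the side of the phagocyte genes, with 0 passed. Over the organs 9 of 9 T cell markers (median 0.14), 5 of 5 NK cell markers (0.16), 8 of 8 B and plasma cell markers (0.17) and 7 of 7 dendritic cell markers (0.09) lay above 0. Of all genes tested over the organs 46.5% lay above 0. In lung the medians were 0.44 over 9 T cell markers, 0.69 over 5 NK cell markers and 0.53 over 8 B and plasma cell markers, each of them above 0. Outside the lung most of these markers were too low to test. Of NK cell markers 5 were tested in lung and 0 in each other organ. Of T cell markers 9 were tested in lung, 1 in kidney and 0 in liver, heart and muscle. The organ values of these 2 lists therefore rest mostly on lung. The part of these markers in the organ averages was not tested. Of neutrophil markers, 7 of 11 tested lay above 0 in the organ average, with a median of 0.05, and the neutrophil sums overlapped between ICB and IgG in each of the 6 tissues.

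The test of tumor against organs found no member to differ. The treatment difference in tumor minus the organ average was 1.38 ± 0.37 log2 units for Ly6c2 (limma, adjusted p = 0.16, unadjusted 0.00084), 1.29 ± 0.56 for Chil3 (adjusted p = 0.71) and -0.98 ± 0.43 for Cd68 (adjusted p = 0.70). Ly6c2 reached 1 FPKM in 0 of 6 libraries of kidney, heart and muscle and in 2 of 6 livers. The 1 added to FPKM before the log presses differences at such levels towards 0. Its organ average was 0.11 log2 units, and 0.12 with a pseudocount of 0.1, so its value in this test mostly restates the tumor difference. Of 9 members 0 passed and 3 had an unadjusted p under 0.05, while 0.236% of 16123 genes passed and 6.33% had such a p. With limma-voom 0 passed and 3 had an unadjusted p under 0.05. Ly6c2 passed on the TPM scale (limma, adjusted p = 0.035) and without lung IgG replicate 3 (adjusted p = 0.011). A test of any difference among the 6 tissues passed for 0 of 9 members, with 2 (Ly6c2 and Lyz2) under an unadjusted p of 0.05 and 1 with limma-voom, and for 0.0868% of genes, with 6.2% under that unadjusted p.

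Means over each class are a description with a floor in it: 1 of the 4 monocyte genes was tested in liver and 2 in kidney, heart and muscle, and the pseudocount presses the differences of the others towards 0. The mean of the 4 monocyte genes differed by 0.84 log2 units between ICB and IgG tumors, that of the 5 mature phagocyte genes by 0.13, and the gap between these differences was 0.71 (SD between replicates 0.52). In liver the monocyte mean differed by 0.03 and the mature mean by 1.06, a gap of -1.03 (SD 0.38). In muscle the values were 0.04 and 0.76 (gap -0.72, SD 0.35), in heart -0.17 and 0.25 (gap -0.43, SD 0.18), in kidney 0.44 and 0.64 (gap -0.20, SD 0.21) and in lung 0.38 and 0.28 (gap 0.10, SD 0.42). From the members tested in each tissue alone, the monocyte mean in liver is Chil3 by itself (-0.19, against 1.34 for the mature mean), and the gap was -0.70 in heart, -0.86 in muscle, -0.03 in kidney and 0.02 in lung.

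Monocyte mean minus mature mean was -3.80, -3.18 and -3.73 in ICB livers against -2.08, -2.89 and -2.65 in IgG livers. In hearts it was -1.92, -2.11 and -1.75 under ICB against -1.70, -1.36 and -1.44 under IgG. In both organs the groups did not overlap, with ICB lower, and the same floor applies. In tumors it was -1.39, -1.47 and -2.10 under ICB against -1.74, -2.36 and -2.99 under IgG, and the groups overlapped. With 3 against 3 libraries an exact permutation test cannot go below a two-sided p of 0.10, and no p is given for these means, which are descriptions of chosen genes.

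**Figure D3:**
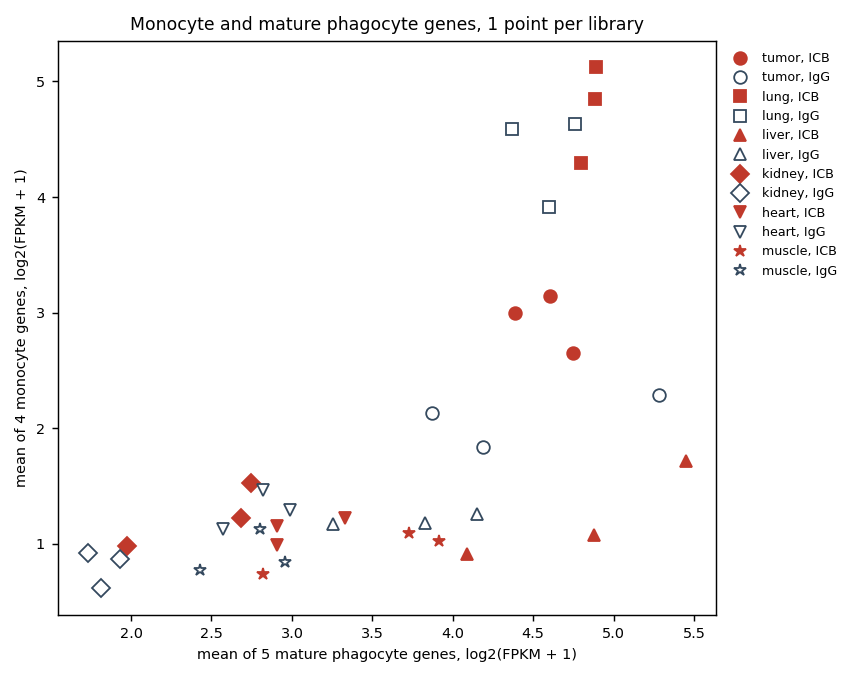
Mean log2(FPKM + 1) of the 4 monocyte genes against that of the 5 mature phagocyte genes, 1 point per library, with filled red symbols for ICB and open blue ones for IgG and a symbol shape per tissue. ICB livers lie to the right of IgG livers except for 1 at 4.09 beside an IgG liver at 4.15, and ICB tumors lie above IgG tumors.

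Other genes of the same cells and pathways were read from lists, chosen with earlier results of these data known. Of all genes tested over the organs 46.5% lay above 0 and 0.414% passed as higher. Over the organs, 15 of 15 other monocyte genes tested lay above 0, with a median of 0.27 beside -0.01 over all genes, and 4 rose: Adgre4 (0.76 ± 0.13, adjusted p = 0.012), Spn (0.61 ± 0.13, 0.021), Itgal (0.62 ± 0.13, 0.025) and Treml4 (0.70 ± 0.16, 0.038; SE, limma). The list mixes genes of classical and nonclassical monocytes, and lymphocytes also carry Spn and Itgal. Adgre4 had 8.70 to 13.3 FPKM in ICB lungs against 2.32 to 6.19 in IgG lungs, and 4.92 to 16.98 in ICB livers against 3.02 to 4.89 in IgG livers. Spn had 17.8 to 23.5 FPKM in ICB lungs against 4.30 to 11.8 in IgG lungs. Neither gene overlapped between groups in lung, nor Adgre4 in liver. In kidney, heart and muscle Treml4 was at most 1.44 FPKM and Adgre4 at most 1.06, so their organ values rest mostly on lung and liver.

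Of phagosome, lysosome and phagocyte oxidase genes, 20 of 20 lay above 0 over the organs with a median of 0.40, and 3 rose. Cybb, the catalytic subunit of the phagocyte NADPH oxidase, was 0.72 ± 0.14 higher, Laptm5, a lysosomal membrane protein gene, 0.63 ± 0.13 (both limma, adjusted p = 0.019) and Ctss, the protease cathepsin S, 0.83 ± 0.18 (adjusted p = 0.027). Of resident macrophage markers 14 of 15 lay above 0 with a median of 0.40, and Cd5l (0.75 ± 0.15), Vsig4 (0.58 ± 0.13) and Adgre1 (0.72 ± 0.17) rose (limma, adjusted p 0.020 to 0.040). Cd5l, a secreted protein of Kupffer cells, had 202 to 759 FPKM in ICB livers against 93.0 to 204 in IgG livers. In lung it had 2.89 to 5.81 FPKM under ICB against 0.634 to 0.873 under IgG, and there the groups did not overlap. In kidney, heart and muscle Cd5l was at most 0.502 FPKM, near the floor. Vsig4 was at 32.25 to 140 FPKM in liver and at most 2.90 in any other organ library, while Adgre1 was at least 1.33 in each organ library.

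Among recruitment and growth signals 12 of 14 lay above 0 with a median of 0.10. Csf1r, the receptor for the macrophage growth factor CSF-1, rose by 0.65 ± 0.14 (limma, adjusted p = 0.025). Of 11 myeloid transcription factors 10 lay above 0 with a median of 0.36 and 0 passed. The nearest were Irf5 (0.42, limma, adjusted p = 0.055) and Nr4a1 (0.84, 0.077). Without liver ICB replicate 3, adjusted p was above 0.05 for Csf1r, Itgal, Treml4, Ctss, Adgre1 and Vsig4, reaching 0.088 for Adgre1. Of the list genes named here that rose, Adgre4 alone passed with the replicate block (limma, adjusted p = 0.025) and Laptm5 alone with limma-voom (0.046).

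In the tumor 0 of 11398 genes passed with limma, and the same lists are given by direction. Of 13 other monocyte genes 9 lay above 0 with a median of 0.35, with the smallest p for Ms4a4c (1.11 ± 0.21) and Plac8 (1.13 ± 0.37; limma, adjusted p 0.69 and 0.70). Hp, a haptoglobin gene, had a larger difference with a larger error (1.68 ± 0.86, adjusted p = 0.74). Resident macrophage markers had 3 of 10 above 0 with a median of -0.18, and phagosome, lysosome and oxidase genes 10 of 20 with a median of 0.01. All 15 interferon response genes lay above 0 with a median of 0.84, and they summed to 648 to 754 FPKM in ICB tumors against 319 to 445 in IgG tumors. Of all genes tested in tumor 48.2% lay above 0. Skeletal muscle markers summed to 4.04, 17.1 and 352 FPKM in the ICB tumors and 4.75 to 10.7 FPKM in IgG tumors, and their part was not tested.

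Within tissues, the mature phagocyte genes varied together from library to library and the monocyte genes less so. After each tissue's mean was subtracted, Pearson's r over the 36 libraries had a median of 0.58 over the 10 pairs of mature genes (0.37 to 0.82). It was 0.23 over the 6 pairs of monocyte genes (-0.31 to 0.53) and 0.28 over the 20 mixed pairs (-0.41 to 0.735). By these medians of r, monocyte genes were no closer to each other than to mature genes. The medians of monocyte and mixed pairs lie close, and by Spearman's rho, a rank measure, their order turned. Ly6c2 with Cx3cr1 had r of 0.09 and rho of 0.35, and Ly6c2 with Chil3 had 0.43 and 0.27. Ly6c2, Ccr2, Cx3cr1 and Ms4a7 were below 1 FPKM in most libraries of some organs, so r there rests on low values. Cx3cr1, classed as a monocyte gene, had r of 0.41 (Cd68) to 0.735 (Ms4a7) with the mature genes. With the other monocyte genes it had r of -0.31 (Chil3) to 0.27 (Ccr2). By rho Cx3cr1 had 0.46 (Lyz2) to 0.66 (Aif1) with the mature genes and -0.16 (Chil3) to 0.39 (Ccr2) with the monocyte genes. Tumor IgG replicate 3 deviated most from its tissue mean in both Cx3cr1 (1.83) and Ms4a7 (1.04), and rho between these genes was 0.55. All these values of r and rho are descriptions, since libraries share depth, scaling and cell content. Of 8485 genes expressed in all tissues, the ones most like each member were compared in the same way. Mpeg1 was closest to Cybb (r = 0.91), then Inpp5d and Ctss, and Lyz2 to Ctss (0.90), Cyth4 and Tyrobp. Cd68 was closest to Laptm5 (0.89) and to the complement genes C1qb and C1qa, Aif1 to Neurl3 (0.90), Evl and Cyth4, and Ms4a7 to P3h3 (0.78), Ctso and Ctsc. Of the monocyte genes, Ly6c2 was closest to Plac8 (0.70), Snx5 and Ddx39, Ccr2 to Eng (0.67), Fcgr2b and Wfdc17, Cx3cr1 to Acp2 (0.79) and Emilin1, and Chil3 to Eif2b3 (0.62), Pgs1 and Hp.

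**Figure D4:**
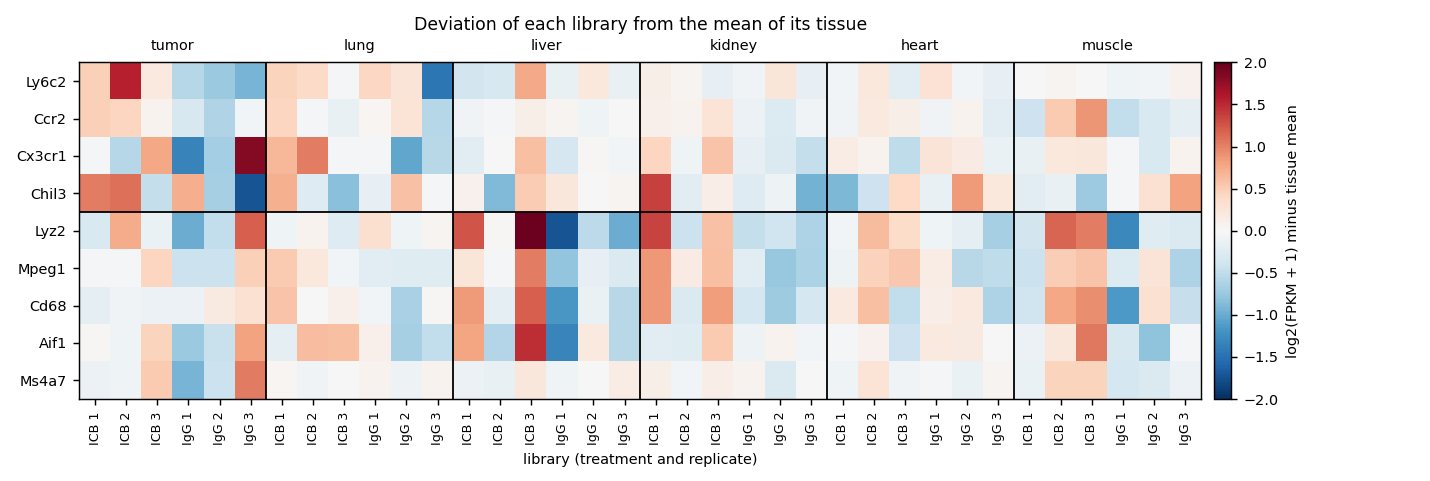
Deviation of log2(FPKM + 1) from the tissue mean for each member (rows, monocyte genes above the line) in each library (columns, ICB left of IgG within a tissue), from blue (below the mean) to red (above it). Liver ICB 1 and 3, kidney ICB 1 and 3 and muscle ICB 2 and 3 are red over Lyz2, Mpeg1 and Cd68 together, whereas tumor ICB 2 is reddest at Ly6c2.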

How the data were processed

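Per the labels, RNA was extracted with TRIzol from flash-frozen tissue and libraries were made with the Illumina TruSeq kit. Per the submitters' processing notes, reads were aligned to mm10 with HISAT2 2.1.0, and edgeR is named. No source used here gives the counter, annotation or strandedness. The authors deposited FPKM values for 18781 rows. Unnamed rows (15, 0.0834% to 0.374% of reads) and 3 symbols present in 2 rows each were left out, and 0 columns were unused. Whole reads were recovered from 18781 rows (tolerance 0.001 reads). No pair of libraries within a group (36 pairs) differed by less than sampling noise.

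Genes with at least 1 FPKM in at least 3 of the 6 libraries of a tissue were tested on log2(FPKM + 1), which understates changes of low genes, with limma 3.58.1 (trend, two-sided, Benjamini-Hochberg over all genes tested, threshold 0.05) in R 4.3.3, in 1 fit per tissue. The other contrasts came from a fit of 12 group means to 36 libraries. Scripts were tested on simulated data.

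The members, classes and lists were chosen with earlier results of these data known. The text names all members, near-identical copies, the passing genes of a list or else up to 4 with the smallest p, and the 3 genes most alike to each member, except that some items are not reported here. Alternatives covered pseudocount, filter, scaling, trend, joint fit, limma-voom, a replicate block, class membership and leaving out each library.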

Additional observations from a re-analysis of the deposited data

How the results depend on the processing

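Members that passed in the organ average numbered 3, against 1 with no filter on low values, with limma-voom or with the filter set in each organ, 0 with the replicate block, and 1 to 4 when 1 library was left out. The block used the numbers in the sample titles (consensus correlation 0.11). Libraries with the same number did not all deviate together (r -0.29 to 0.57 over 56 pairs, median 0.15, against a median of -0.02 over 484 other pairs). The labels do not say what the numbers mark, so whether they pair libraries is not known. Under the block adjusted p was 0.064 for Mpeg1, 0.081 for Lyz2 and 0.11 for Cd68 (limma). Averaged per title number over the organs (5 ICB and 5 IgG numbers, two-sided exact permutation test added after seeing the data, smallest possible p 0.00794), p was 0.00794 for Mpeg1 and Lyz2, 0.0159 for Cd68 and Ccr2, 0.0238 for Cx3cr1, 0.0556 for Aif1, 0.143 for Ms4a7, 0.563 for Ly6c2 and 0.587 for Chil3. These p-values are not adjusted over genes, and no share over all genes was computed beside them. Each number rests on 1 to 4 organ libraries, and the members were chosen with results known. The test also takes the numbers as independent units, which the labels do not state, so it does not restore calls lost with the block.

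In single tissues 1 member passed in tumor and 1 in liver from 1 fit of all 36 libraries, and kidney had 0 to 1 when 1 library was left out. That joint fit called 69, 55, 74, 12, 3 and 91 genes in tumor, lung, liver, kidney, heart and muscle, against 0, 0, 0, 2, 0 and 0 from fits per tissue. In tumor minus organs 1 member passed on the TPM scale, and 0 to 1 when 1 library was left out. Among IgG tissue pairs, liver minus heart had 3 members, against 5 with a pseudocount of 0.1, 1 on the TPM scale and 1 to 4 without 1 library. The TPM scale gave 9 members for tumor minus liver, 3 for liver minus muscle (3 to 5 without 1 library) and 1 for heart minus muscle (1 also with limma-voom, 1 to 2 without 1 library).

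Over all genes, 72 passed in the organ average (88.9% of them higher), against 234 on the TPM scale (98.3% higher), 14 with limma-voom, 23 with the filter in each organ and 5 with the block. In tumor minus organs 38 passed (55.3% higher), against 18 with a pseudocount of 0.1, 75 with no filter, 72 on the TPM scale (27.8% higher) and 6 with limma-voom. In the test among the 6 tissues 14 passed, against 5, 45, 22 and 0 under those settings, 9 with no trend and 27 with the block. In kidney 2 passed, against 1 with no filter or limma-voom, and in liver 0, against 1 with no filter.

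Treatment differences that changed sign did not pass in any of these fits, and the cause was not tested. Of IgG level differences, 12 changed sign on the TPM scale and 4 of them passed there: tumor minus liver for Mpeg1 (1.18) and Chil3 (1.26), tumor minus heart for Chil3 (1.18) and tumor minus muscle for Lyz2 (1.24). Ms4a7 in tumor minus organs was -0.0011 with a pseudocount of 0.1 and -0.0891 with limma-voom, and Lyz2 in lung was 0.033 on the TPM scale. Without 1 library, the ranges in tumor were -0.049 to 0.72 for Aif1, -0.52 to 1.06 for Cx3cr1, -0.26 to 0.84 for Lyz2 and -0.20 to 0.78 for Ms4a7. In tumor minus organs they were -0.53 to 0.24 for Aif1, -0.91 to 0.68 for Cx3cr1 and -0.34 to 0.65 for Ms4a7. In lung they were -0.0786 to 0.35 for Ccr2, -0.67 to 0.10 for Chil3 and -0.073 to 0.86 for Ly6c2. Elsewhere they were -0.20 to 0.18 for Aif1 in kidney, -0.0642 to 0.49 for Cd68 and -0.31 to 0.0184 for Cx3cr1 in heart, -0.49 to 0.20 for Chil3 in liver, and -0.0045 to 0.18 for Ly6c2 in the organ average. From the members tested in each tissue alone (added after seeing the data) the gap between the classes was -1.53 in liver and -0.70 in heart. The gap kept its sign in tumor, liver, kidney, heart and muscle under each alternative and without any 1 library, and in lung it ran from -0.14 to 0.31, below 0 also with Cx3cr1 or Lyz2 left out.

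With 3 libraries a group, differences near the spread between libraries were not detectable, and Ly6c2, Ccr2 and Ms4a7 were too low in several organs to be tested.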
